A study of Mus musculus with 24 samples.

Results

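The genes described here were on in cultured D2A1 cells and silent in cultured D2.1 cells. A protein-coding gene was taken when it had 3 or fewer reads in each of the 3 D2.1 culture libraries and 50 or more reads in each of the 3 D2A1 culture libraries. The genes were thus selected on their culture reads, and the rule found 58 genes among 21397 protein-coding genes of the culture table, or among 9783 genes that had 50 or more reads in every D2A1 culture library. The mirrored rule, on in D2.1 and silent in D2A1, found 37 genes.

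D2A1 and D2.1 are 2 mouse mammary tumor cell lines, each derived from D2 hyperplastic alveolar nodules of female BALB/c mice. D2A1 is the proliferative line and D2.1 the dormant line. RNA-seq had been run on each line without treatment in culture (3 replicates each) and on whole tumors grown in the mammary fat pad (MFP) of female BALB/c mice (4 tumors per line) or female SCID-beige mice (5 tumors per line). BALB/c mice are immunocompetent, whereas SCID-beige mice lack T and B cells and have defective NK cells. According to the paper, tumors of both lines were collected for sequencing at about the same volume. Their times in the mouse are not given here. A difference between the lines in tumors therefore cannot be told apart from one of time in the mouse. The mice were young adults, and no other treatment and no transgene is named for any group. Each line is a single line and each tumor library is the bulk RNA of 1 tumor, with the mouse's own stroma, vessels and leukocytes in it. Host and tumor cells are both mouse, so a transcript in a D2.1 tumor cannot be told apart as one of the implanted line or one of the host. In bulk tumors, fewer cells of a type and less RNA per cell cannot be told apart either.

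A gene may be silent in a cell line for many reasons, among them a missing transcription factor, closed or methylated promoter chromatin, or loss of the DNA. Many genes of this kind are developmental regulators, germline genes or neuronal genes, which most adult epithelial cells do not transcribe. Promoters rich in CG dinucleotides (CpG) often carry DNA methylation when they are silent in tumor lines. Where a gene is on in one line only, its reads can serve as a tracer of that line inside a tumor, provided that the host tissue does not transcribe it.

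Of the 58 genes, 47 had a promoter in the RefSeq table (GRCm38.p6; 250 bases before the start and 50 bases after it). A selection of 5 is shown, upstream bases only, for genes that the tumor results turn on, with each CG in capitals. Aox4, an aldehyde oxidase gene, had no read in any D2.1 tumor (chr1:58210147-58210396, plus strand). Mgmt, which encodes the DNA repair protein that removes alkyl groups from guanine, stayed low in D2.1 tumors (chr7:136894336-136894585, plus strand). Mmp10, a matrix metalloproteinase gene, is shown as a promoter with 1 CG in the 250 bases (chr9:7502092-7502341, plus strand). Dlx2, a homeobox gene of forebrain and craniofacial development, was nearly absent from the tumors of both lines (chr2:71546755-71547004, minus strand). Pou4f1, a POU homeobox gene of sensory neurons, had 47 CG in the 250 bases (chr14:104468000-104468249, minus strand).
Aox4: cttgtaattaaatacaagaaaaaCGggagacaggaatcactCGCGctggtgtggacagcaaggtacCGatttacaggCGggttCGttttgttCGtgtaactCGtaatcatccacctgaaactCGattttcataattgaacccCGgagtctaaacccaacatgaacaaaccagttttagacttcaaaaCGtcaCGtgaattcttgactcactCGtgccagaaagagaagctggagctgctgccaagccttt
Mgmt: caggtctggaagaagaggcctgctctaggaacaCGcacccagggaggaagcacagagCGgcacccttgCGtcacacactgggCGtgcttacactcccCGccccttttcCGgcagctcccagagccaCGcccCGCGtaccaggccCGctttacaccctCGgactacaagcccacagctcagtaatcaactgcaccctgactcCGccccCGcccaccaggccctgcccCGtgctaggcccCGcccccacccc
Mmp10: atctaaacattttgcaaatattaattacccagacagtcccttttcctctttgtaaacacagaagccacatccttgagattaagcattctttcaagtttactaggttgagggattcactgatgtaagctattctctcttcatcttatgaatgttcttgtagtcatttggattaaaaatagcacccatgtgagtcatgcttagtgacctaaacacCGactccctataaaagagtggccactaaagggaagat
Dlx2: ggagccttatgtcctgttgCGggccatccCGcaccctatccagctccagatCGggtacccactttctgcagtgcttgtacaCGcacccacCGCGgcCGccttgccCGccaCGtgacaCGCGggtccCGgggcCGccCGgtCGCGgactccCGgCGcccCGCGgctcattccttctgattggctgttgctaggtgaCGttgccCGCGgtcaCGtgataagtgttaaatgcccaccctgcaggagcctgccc
Pou4f1: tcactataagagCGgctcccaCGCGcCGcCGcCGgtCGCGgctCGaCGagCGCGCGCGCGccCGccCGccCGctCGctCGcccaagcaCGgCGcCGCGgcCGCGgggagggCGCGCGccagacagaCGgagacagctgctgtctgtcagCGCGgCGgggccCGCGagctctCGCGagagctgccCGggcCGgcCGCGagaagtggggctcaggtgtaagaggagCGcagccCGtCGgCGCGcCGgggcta
The ratio of observed to expected CG over the whole 300-base window was above 0.6 in 30 of the 47 promoters (63.8%). The share was 80.6% among the promoters of 7837 other genes on in cultured D2A1 cells and 36.5% among all 27018 promoters of the table. The median ratio was 0.71, 0.80 and 0.39 in these 3 sets. The TATA motif (TATAAA, either strand, in the 250 upstream bases) was present in 3 of the 47 promoters (6.38%), in 5.56% of the other genes on in D2A1 and in 13.0% of all promoters. Mmp10 was 1 of the 3. These are counts of letters and say nothing on methylation, which was not measured.

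In culture the 58 genes were mostly of low to moderate level in D2A1 cells. Their mean CPM, reads scaled to library size with trimmed mean of M values (TMM) factors, in D2A1 culture ran from 3.11 to 72.7, with a median of 10.8. Per length, the median was 2.84 FPKM, against 14.1 FPKM for all genes on in D2A1 culture, and the highest were Gxylt2 (34.3 ± 11.96 FPKM, SD, n = 3), a xylosyltransferase of Notch, Tceal8 (27.9 ± 1.96) and Olfm1 (27.7 ± 5.12), a secreted olfactomedin protein. In all, 30 of the 58 genes had 0 reads in every D2.1 culture library. With the totals of 16837260 to 24818234 reads in the culture libraries, 3 reads stood for 0.121 to 0.178 CPM. These culture values chose the genes and carry no test.

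Near the limits of the rule the choice was a matter of a few reads. Plch1 (55, 62 and 50 reads in D2A1), Asphd2 (54, 80 and 77) and Jakmip3 (71, 55 and 120) lay just inside the minimum of 50. Jazf1 (49, 65 and 124), Lyplal1 (61, 69 and 47) and Efcc1 (47, 51 and 68) lay just outside it. On the D2.1 side, Tbx3 (2, 0 and 3 reads), Igsf11 (0, 1 and 3) and Ltk (2, 3 and 2) were inside the limit of 3, and Tcea3 (0, 0 and 4), Igfbp7 (1, 4 and 0) and Pik3c2b (2, 4 and 1) were outside it.

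The genes were then followed in 18 tumors that the rule had not used. A gene was called detected in a tumor with more than 3 reads, which was 0.163 to 0.221 CPM at the tumor totals of 13566949 to 18355153 reads. Of the 58 genes, 52 were detected in all 9 D2A1 tumors. In D2.1 tumors 23 were detected in all 9, 31 in 1 to 8 and 4 in none. The 4 were Aox4, Igsf11, Morc1 and Dlx2. On these counts 3 genes were present in all 9 D2A1 tumors and in no D2.1 tumor, 32 were detected in every D2A1 tumor at levels above those of all D2.1 tumors, 17 were detected in every D2A1 tumor with levels that overlapped, and 6 were patchy, that is missing from at least 1 D2A1 tumor. No gene was missing from all 9 D2A1 tumors. These counts describe the set, as shares over all genes were not computed for them. The share of all genes without overlap within each host is given further on.

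**Figure D1:**
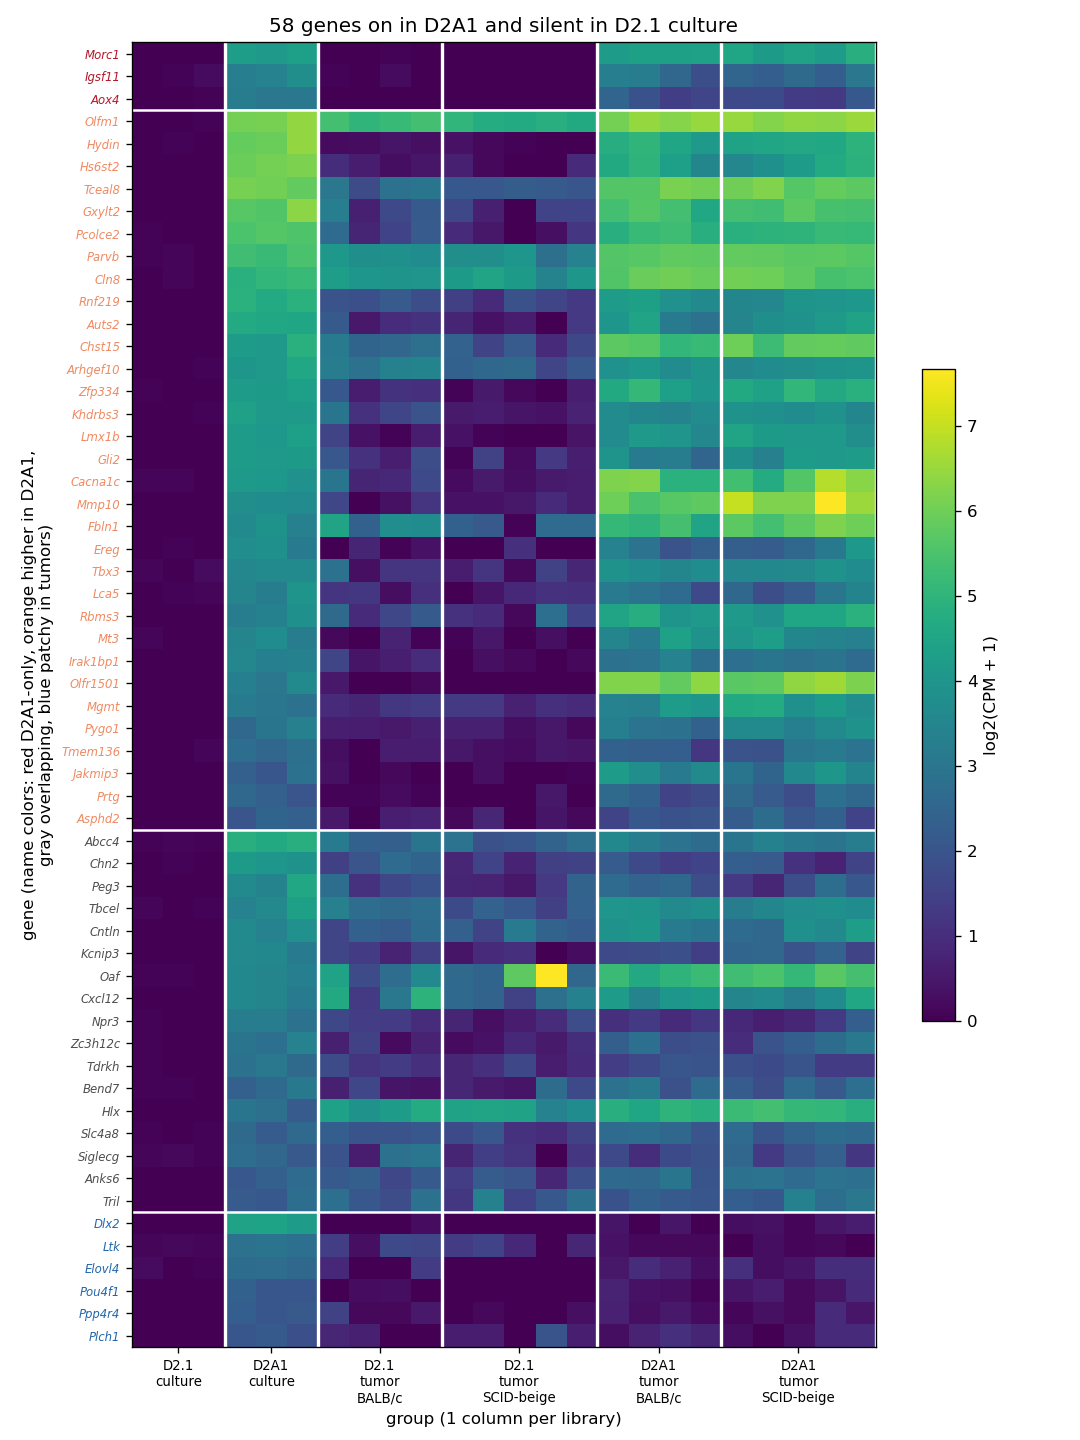
Level of each of the 58 genes (rows, ordered by behavior in tumors and then by level in cultured D2A1 cells) in each of the 24 libraries (columns), as log2(CPM + 1). The columns of D2.1 culture are dark throughout, and the top 3 rows (Morc1, Igsf11 and Aox4) stay dark in D2.1 tumors. Further down, Olfm1, Parvb and Cln8 are among those that are light in D2.1 tumors too, and the bottom 6 rows are dark or faint in most tumors of D2A1.

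The median D2.1 tumor held 9.62% of the level of the median D2A1 tumor, as the median over the 58 genes. By gene, 12 were under 1% of the D2A1 tumor level, 17 between 1% and 10%, 18 between 10% and 50%, 10 between 50% and 100%, and 1 (Ltk) above it. The lines were compared within each host by edgeR's quasi-likelihood test with Benjamini-Hochberg adjustment over all genes tested. In BALB/c tumors 40 of the 58 genes were lower in D2.1 and 0 were higher, with 54 past the low-count filter. Of all genes tested there, 15.8% were lower and 16.8% higher in D2.1. In SCID-beige tumors 43 were lower and 0 higher, with 52 past the filter, against 14.8% lower and 17.2% higher among all genes. At an unadjusted p under 0.05, the counts of genes higher in D2.1 were also 0 in both hosts, and DESeq2 called 1 gene higher in each (Ltk). Of all genes that DESeq2 tested, 3130 of 20584 were higher in BALB/c and 2890 of 20091 in SCID-beige tumors. In all, 38 genes were lower in D2.1 tumors of both hosts, where 9.96% of all genes tested in both were. This share is also the background of the counts by role given further on. The test was passed in BALB/c mice alone by 2 genes (Bend7 and Oaf), in SCID-beige mice alone by 5 (Anks6, Cxcl12, Hlx, Kcnip3 and Slc4a8) and in neither by 13. Every D2A1 tumor was above every D2.1 tumor for 40 genes in BALB/c mice and 43 in SCID-beige mice, where all genes with any read gave 11.4% and 6.92%. Different tumors are the replicates here, so the p-values set the difference between groups against the spread between tumors of a group. As each line is a single line, they speak for this pair of lines only.

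**Figure D2:**
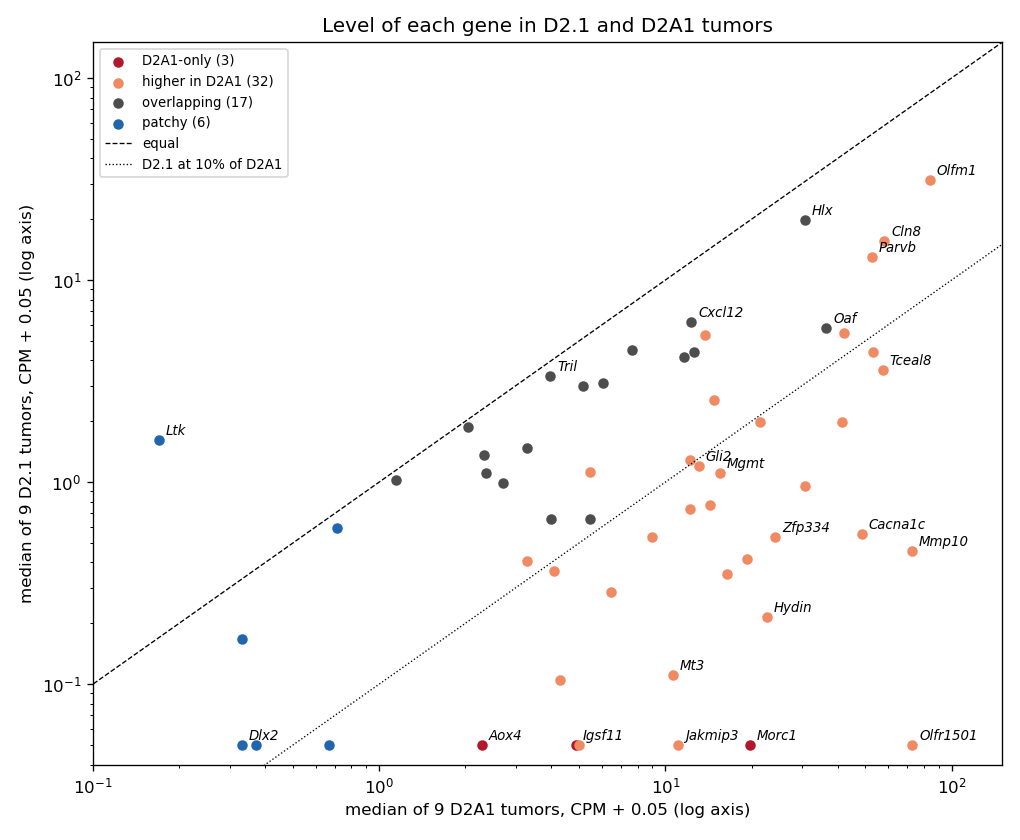
Median CPM of the 9 D2.1 tumors against that of the 9 D2A1 tumors for each of the 58 genes, both plus 0.05 on log axes, colored by behavior in tumors. Nearly all points lie under the line of equal levels, 29 of them at less than 10% of D2A1, and Ltk lies above it.

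The clearest D2A1 tracer was Morc1, which encodes a chromatin protein of male germ cells and is the only one of the set on the germline and meiosis list. It had 321, 296 and 358 reads in D2A1 culture and 0 in each D2.1 culture library. D2A1 tumors held 302, 326, 317 and 350 reads in BALB/c mice and 317, 243, 293, 282 and 437 in SCID-beige mice. The 9 D2.1 tumors held 1 read in all, in a BALB/c tumor. The ratio of D2A1 to D2.1 was 1313 in BALB/c tumors (95% exact interval for counting error only, 235 to 51890). In SCID-beige tumors, where D2.1 had no read, Morc1 was at least 118-fold higher in D2A1, taking a floor of 3 reads per library. Its level in D2A1 tumors was 109% of that in culture, and all 9 tumors lay between 17.0 and 27.3 CPM. Germline genes were otherwise rare in cultured D2A1 cells, where 4 of 75 genes of that list were on.

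Igsf11, an immunoglobulin superfamily adhesion protein, and Aox4 were the other 2 genes absent from D2.1 tumors by the detection limit. Igsf11 had 150, 137, 78 and 46 reads in BALB/c D2A1 tumors and 66, 56, 76, 61 and 116 in SCID-beige mice, against 1, 0, 3 and 0 and then 0 in all 5 D2.1 tumors. Aox4 had 22 to 80 reads in D2A1 tumors and 0 in all 9 D2.1 tumors, at least 15.9-fold and 12.2-fold higher in D2A1 in BALB/c and SCID-beige mice. Aox4 kept 29.0% of its culture level in D2A1 tumors and Igsf11 46.4%.

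Olfr1501 is annotated as an olfactory receptor and was the only one of 1020 olfactory receptor genes that was on in cultured D2A1 cells. It had 156, 129 and 223 reads there. In D2A1 tumors it reached 73.4, 73.0, 55.6 and 81.0 CPM in BALB/c mice and 51.1, 53.9, 82.9, 94.5 and 69.8 CPM in SCID-beige mice. D2.1 tumors had 8, 0, 0 and 2 reads in BALB/c mice and 0 in all 5 SCID-beige mice. It was lower in D2.1 by 8.84 ± 0.57 (SE) on the log2 scale in BALB/c tumors (edgeR adjusted p = 2.9e-06) and at least 394-fold higher in D2A1 in SCID-beige tumors. The median tumor held 778% of the culture CPM. The gene's length, as implied by the deposited FPKM values, was 948 bases in the culture table and 3191 in the tumor table, so the tumor count covers a longer gene model and its part in the higher tumor value was not tested.

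Among transcription factors and their partners, 6 of 11 were lower in D2.1 tumors of both hosts and 2 of 11 were at under 10% of their culture level in D2A1 tumors too. Gli2, the main transcriptional activator of Hedgehog signaling, had 254, 133, 135 and 82 reads in BALB/c D2A1 tumors and 59, 19, 10 and 41 in D2.1 tumors (log2 difference −2.23 ± 0.54, edgeR adjusted p = 0.0096). In SCID-beige mice the values were 186, 131, 247, 265 and 286 against 1, 31, 3, 24 and 9 reads (−4.17 ± 0.60, adjusted p = 0.00015, edgeR). The groups did not overlap in either host. Lmx1b, a LIM homeobox gene of limb and midbrain, was lower by 4.23 and 6.90 on the log2 scale, and Tbx3, a T-box factor needed for mammary gland formation, by 2.42 and 3.68. The BALB/c call of Tbx3 was lost without D2.1 replicate 3 or 4 (edgeR adjusted p up to 0.060). Pygo1, a Wnt coactivator of the PHD finger type, Auts2 and Zfp334 were lower likewise (−3.59, −3.08 and −3.90 in BALB/c; −4.83, −4.61 and −6.67 in SCID-beige; all past the edgeR threshold).

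Hlx and Peg3 were different. Hlx, a homeobox gene of visceral mesenchyme, had 0 reads in all D2.1 culture libraries and was abundant in D2.1 tumors, at 19.9, 13.9, 17.6 and 25.5 CPM in BALB/c mice and 20.3, 21.2, 20.2, 9.52 and 12.3 CPM in SCID-beige mice. D2A1 tumors held 22.3 to 41.0 CPM, against 5.53 ± 1.69 CPM (SD, n = 3) in culture. By level, with no test, Hlx was higher in tumors than in culture for both lines, and it was lower in D2.1 than in D2A1 tumors of SCID-beige mice (log2 difference −1.0 ± 0.23, edgeR adjusted p = 0.0046). In BALB/c tumors the difference was −0.45 ± 0.22 (edgeR adjusted p = 0.14) and passed with tumors paired by replicate number (adjusted p = 0.037 in edgeR). Peg3, a paternally expressed imprinted zinc finger gene and the only imprinted gene of the set among 15 that were on, kept 21.9% of its culture level in D2A1 tumors. Its D2.1 tumors held 0.404 to 5.78 CPM and its D2A1 tumors 0.771 to 5.89 CPM, with no call in either host (edgeR adjusted p = 0.45 and 0.40). Bend7 was lower in BALB/c D2.1 tumors (−2.71 ± 0.63, edgeR adjusted p = 0.0077) and, in SCID-beige mice, had 94 reads in 1 D2.1 tumor and 6 to 36 in the others (adjusted p = 0.20, edgeR).

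Dlx2 and Pou4f1 were the factors not kept in tumors. Dlx2 had 356, 372 and 329 reads in D2A1 culture, 6, 0, 6 and 0 in BALB/c D2A1 tumors, and 3, 4, 1, 6 and 8 in those of SCID-beige mice. That was 1.43% of the culture CPM, the lowest of the set. Pou4f1 kept 9.13% with 1 to 14 reads per D2A1 tumor. Neither passed the low-count filter for the comparison of the lines. D2.1 tumors held 0, 0, 0 and 3 reads of Dlx2 in BALB/c mice and none in SCID-beige mice.

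Secreted and matrix proteins made up 7 of the 58 genes, and 5 were lower in D2.1 tumors of both hosts. Mmp10, which encodes stromelysin-2, had 12.8, 12.2 and 12.1 CPM in cultured D2A1 cells and stood at 588% of that level in the median D2A1 tumor, 42.9 to 62.1 CPM in BALB/c mice and 72.7 to 203 CPM in SCID-beige mice. D2.1 tumors held 0 to 2.09 CPM, and the line difference was −5.79 ± 0.69 and −7.84 ± 0.42 in BALB/c and SCID-beige tumors (edgeR adjusted p = 0.00016 and 2.8e-08). Fbln1, a fibulin of the extracellular matrix, stood at 360% of its culture level in D2A1 tumors and was also well present in D2.1 tumors (384, 69, 224 and 200 reads in BALB/c mice), with a line difference of −1.33 ± 0.40 there (edgeR adjusted p = 0.028). The call was lost in 1 fit of all tumors and without D2.1 replicate 3 or 4 or D2A1 replicate 1 or 3 (edgeR adjusted p up to 0.074). Ereg, the EGF receptor ligand epiregulin, had 47 to 257 reads per D2A1 tumor. In D2.1 tumors it had 0, 12, 1 and 5 reads in BALB/c mice and 0, 0, 19, 0 and 0 in SCID-beige mice. Pcolce2, an enhancer of procollagen processing, and Olfm1 were the other 2 of the 5. Olfm1 stayed abundant in D2.1 tumors, with 24.4 to 41.0 CPM against 66.5 to 90.6 CPM in D2A1 tumors, and did not overlap.

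Cxcl12 and Oaf were silent in D2.1 culture and reached or exceeded D2A1 levels in some D2.1 tumors. Cxcl12, the stromal chemokine that binds CXCR4, had 0 reads in every D2.1 culture library and 24.1, 1.45, 7.46 and 30.5 CPM in BALB/c D2.1 tumors, against 17.4, 9.78, 15.5 and 17.0 CPM in D2A1 tumors (log2 difference 0.13 ± 0.67, edgeR adjusted p = 0.91). In SCID-beige mice it was lower in D2.1 (−1.26 ± 0.39, edgeR adjusted p = 0.025), a call lost without D2.1 replicate 2 or D2A1 replicate 5 (adjusted p up to 0.068). Oaf, a secreted protein of little known function, had 5.29, 4.57, 54.0, 202 and 4.83 CPM in SCID-beige D2.1 tumors, where 2 of the 5 tumors stood above all 5 D2A1 tumors (33.2 to 51.0 CPM). With these 5 tumors the difference was 0.41 ± 0.88 (edgeR adjusted p = 0.76), and without the 2 high tumors, a setting chosen after the data were seen, it was −3.06. Of all 58 genes, these tumors (replicates 3 and 4) were the highest of the 9 D2.1 tumors for 2 and 5. In BALB/c mice Oaf was lower in D2.1 tumors (−1.65 ± 0.50, edgeR adjusted p = 0.029), with 20.4, 2.42, 5.76 and 11.5 CPM against 23.7 to 36.5 CPM. That call was lost without a low-count filter (edgeR adjusted p = 0.062), in 1 fit of all tumors (adjusted p = 0.18, edgeR) and without D2.1 replicate 3 or 4 or D2A1 replicate 1, 3 or 4 (adjusted p up to 0.078, edgeR).

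**Figure D3:**
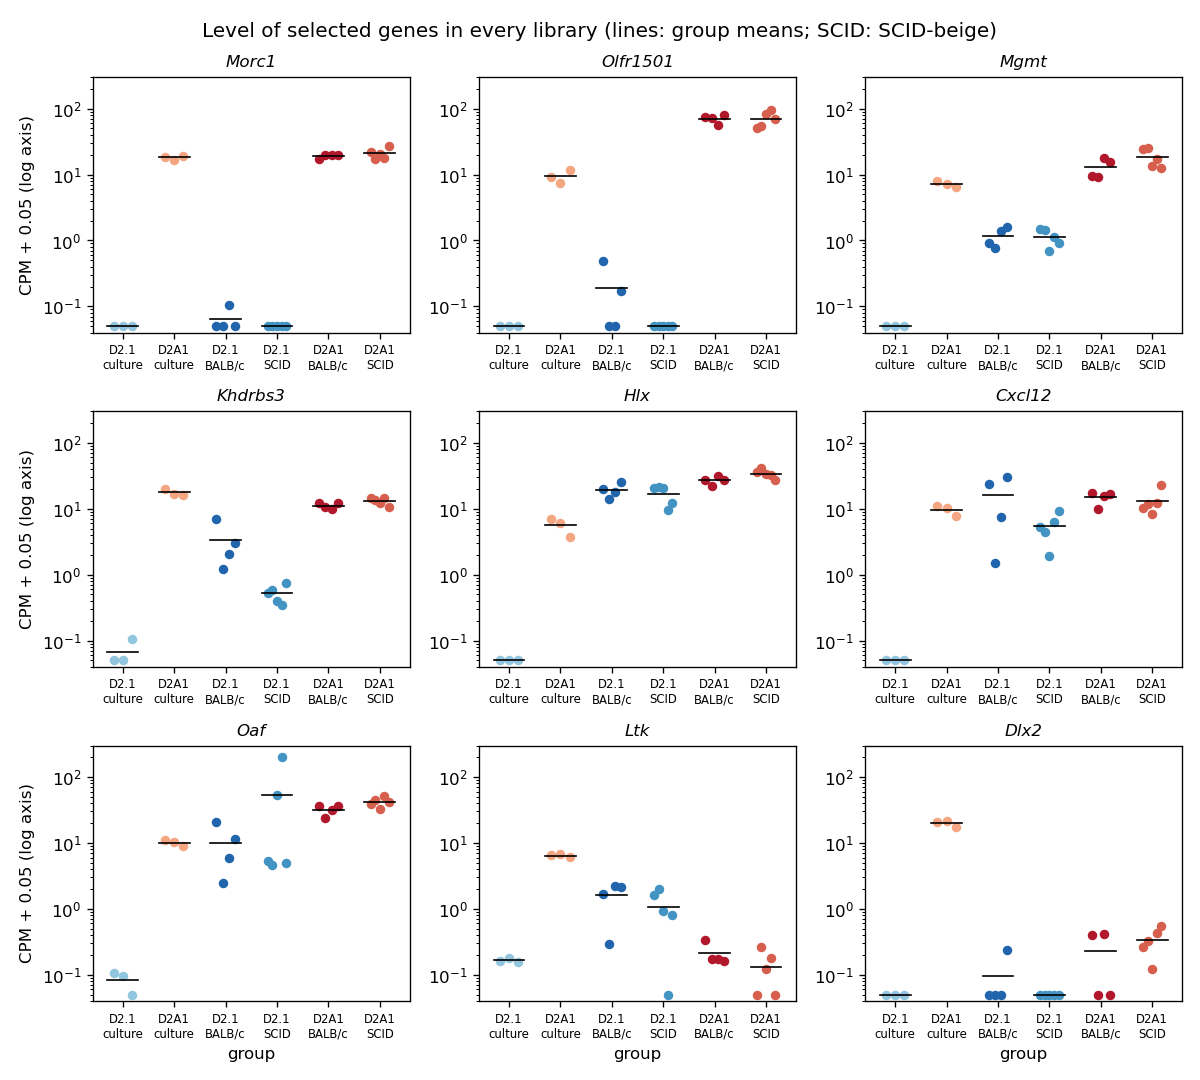
CPM plus 0.05 on a log axis in every library of the 6 groups for 9 genes, with lines at the group means. Morc1 and Olfr1501 stay near 0 in D2.1 tumors, Khdrbs3 is higher in BALB/c than in SCID-beige D2.1 tumors, Hlx, Cxcl12 and Oaf are present in tumors of both lines, Ltk is higher in D2.1 tumors, and Dlx2 is near 0 in all tumors.

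Of 7 receptors and other surface proteins, 3 were lower in D2.1 tumors of both hosts (Igsf11, Olfr1501 and the immunoglobulin domain protein Prtg). Ltk, a receptor tyrosine kinase related to ALK, ran the other way. It had 113, 118 and 112 reads in D2A1 culture but 0 to 5 reads in each D2A1 tumor, 1.89% of the culture CPM. D2.1 tumors held 30, 4, 39 and 34 reads in BALB/c mice and 26, 33, 15, 0 and 12 in SCID-beige mice. Ltk did not pass the low-count filter. In edgeR fits without a filter it was higher in D2.1 by 3.23 on the log2 scale in BALB/c tumors (adjusted p = 0.0058) and by 3.57 in SCID-beige tumors (adjusted p = 0.013), where 9.20% and 9.44% of all genes were higher. Siglecg, an inhibitory sialic acid lectin of B cells, had 53, 8, 114 and 115 reads in BALB/c D2.1 tumors and 12, 29, 21, 0 and 21 in SCID-beige mice. Its line difference was 1.08 ± 0.66 in BALB/c tumors (edgeR adjusted p = 0.25), and without the low BALB/c tumor (replicate 2) it was 1.45 and passed. In SCID-beige mice D2A1 tumors had 68, 21, 41, 64 and 21 reads, and the difference had the other sign, −1.52 ± 0.68 (edgeR adjusted p = 0.11). Npr3, the natriuretic peptide clearance receptor, and Tril, a Toll-like receptor 4 accessory protein, overlapped between the lines in both hosts. Tril had 1.38 to 9.43 CPM in D2.1 tumors and 2.83 to 9.29 CPM in D2A1 tumors.

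Among the 5 channel, transporter and ion-binding genes, Cacna1c and Mt3 were lower in D2.1 tumors of both hosts. Cacna1c, the pore subunit of an L-type calcium channel, had 283, 286 and 261 reads in D2A1 culture and stood at 313% of that level in D2A1 tumors, from 25.2 to 111 CPM. D2.1 tumors held 126, 12, 14 and 36 reads in BALB/c mice and 3 to 8 in SCID-beige mice, with line differences of −4.25 ± 0.71 and −7.29 ± 0.48 (edgeR adjusted p = 0.0012 and 1.6e-07). Mt3, the metallothionein known from brain, had 133 to 323 reads in D2A1 tumors and 0 to 12 in D2.1 tumors. Slc4a8, a bicarbonate transporter, and Kcnip3, a calcium sensor that binds potassium channels, differed in SCID-beige tumors (−1.28 and −2.84, edgeR adjusted p = 0.019 and 0.0053) and did not pass in BALB/c tumors (−0.54 and −0.56). Abcc4, an organic anion exporter, had 28.5% of its culture level in D2A1 tumors and did not differ past the threshold in either host (edgeR adjusted p = 0.33 and 0.073).

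Glycan and lipid enzymes gave 4 calls of 5 in both hosts. Hs6st2 and Chst15, both sulfotransferases of sulfated glycosaminoglycans, differed in the share of the culture level found in D2A1 tumors, at 29.4% and 253%. Hs6st2 had 152 to 515 reads in D2A1 tumors and 0 to 18 in D2.1 tumors. Chst15 had 531 to 917 and 15 to 142. Gxylt2 had 10 to 160 reads in the 4 D2.1 tumors of BALB/c mice and 36, 10, 0, 32 and 31 in SCID-beige mice, against 406 to 813 in D2A1 tumors. Cln8, an endoplasmic reticulum membrane protein mutated in a neuronal storage disease, was present in all D2.1 tumors at 9.76 to 21.3 CPM and in D2A1 tumors at 42.6 to 64.4 CPM. Elovl4, which elongates very long chain fatty acids, kept 11.3% in D2A1 tumors. D2.1 tumors had 15, 0, 0 and 25 reads of Elovl4 in BALB/c mice and none in SCID-beige mice.

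Of 6 DNA repair, germline and RNA-binding genes, 5 were lower in D2.1 tumors of both hosts. Mgmt had 139, 126 and 121 reads in D2A1 culture and 0 in D2.1 culture. D2A1 tumors held 9.53, 9.11, 18.1 and 15.4 CPM in BALB/c mice and 24.3, 25.2, 13.4, 17.2 and 12.6 CPM in SCID-beige mice. D2.1 tumors held 0.881, 0.727, 1.36 and 1.53 CPM, and 1.44, 1.41, 0.634, 1.06 and 0.878 CPM. These low D2.1 values had a median of 6.89% of the D2A1 level, with line differences of −3.49 ± 0.37 and −4.06 ± 0.32 (edgeR adjusted p = 6.9e-05 and 8.5e-07). Mgmt also had a longer gene model in the tumor table (2894 against 818 bases), which bears on its 214.8% of the culture level and not on the difference between tumors. Tceal8, an X-linked elongation factor A-like gene and the only one of its family in the set, had 707 to 1149 reads in D2A1 tumors and 40 to 132 in D2.1 tumors. Rbms3, an RNA-binding protein, had 195 to 460 reads in D2A1 tumors and 2 to 101 in D2.1 tumors. Tdrkh, a piRNA pathway protein of germ cells, overlapped between the lines in both hosts.

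Khdrbs3, a splicing regulator of the STAR family, was the only one of the 58 genes that edgeR called between hosts. In D2.1 tumors it had 125, 19, 36 and 48 reads in BALB/c mice and 8, 9, 6, 5 and 11 in SCID-beige mice, with no overlap. It was higher in BALB/c mice by 2.81 ± 0.56 on the log2 scale (edgeR adjusted p = 0.040), where 0.871% of all genes tested were higher. The call was lost when any 1 of 8 of the 9 tumors was left out, and with tumors paired by replicate number (adjusted p = 0.26, edgeR). At an unadjusted p under 0.05, 12 genes were higher in BALB/c D2.1 tumors and 0 lower, among 36 past the filter, where 7.16% of all genes tested were higher and 2.81% lower. Of the 58 genes, 39 were detected in all 4 D2.1 tumors of BALB/c mice and 24 in all 5 of SCID-beige mice. The numbers of tumors differ and the same shares over all genes were not computed, so these counts show no host difference. A gene could pass the filter through its BALB/c tumors alone, so the direction of these 12 is no support for a host difference. In D2A1 tumors Khdrbs3 had 12.1, 10.4, 9.86 and 12.1 CPM in BALB/c mice and 10.5 to 14.4 CPM in SCID-beige mice.

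In D2A1 tumors 0 of the 58 genes differed between hosts by edgeR, with 54 past the filter, and 1.17% of all genes did. At an unadjusted p under 0.05, 6 were lower in BALB/c mice and 0 higher, where 3.82% of all genes tested were lower and 6.29% higher. Mmp10 (−1.10 ± 0.29, edgeR adjusted p = 0.11), Fbln1 (−0.79 ± 0.22, adjusted p = 0.12) and Pygo1 (−0.81 ± 0.25, adjusted p = 0.18) were called by DESeq2. The test of whether the host difference itself differed between the lines called 0 of 55 genes by edgeR and 0.0187% of all genes. DESeq2 called 3, Khdrbs3, Zfp334 and Irak1bp1. In simulated counts 15.5% of DESeq2's calls for hosts in D2A1 tumors and 12.6% for the interaction were false (edgeR 6.67% and 3.88%). At an unadjusted p under 0.05, 19 genes had a more positive host difference in D2.1 than in D2A1 tumors and 0 a more negative one, where 3.79% and 4.66% of all genes tested did. A gene could pass this filter through its D2A1 tumors alone and be near the floor in SCID-beige D2.1 tumors. The direction of these 19 is therefore no support for a host difference that differs between the lines.

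The D2.1 tumor of BALB/c replicate 1 was the highest of the 9 D2.1 tumors for 26 of the 58 genes. The same library held transcripts of milk protein, adipocyte and muscle markers, whose source was not tested. All 6 milk protein markers were detected in it, at a sum of 510 CPM, against 0 to 2.31 CPM in the other D2.1 tumors. Adipocyte markers summed to 754 CPM in it, 33.9 to 241 CPM in the other 3 BALB/c tumors and 4.50 to 122 CPM in the SCID-beige tumors. Skeletal muscle markers summed to 361 CPM in it and 1.44 to 266 CPM in the others. Skin keratinocyte markers were highest in BALB/c replicate 4 (114 CPM, all 7 detected), which was highest for 9 of the 58 genes. The part of these tissues in the values of the 58 genes was not tested. Without these 2 tumors 38 genes were still lower in D2.1 than in BALB/c D2A1 tumors, where 1599 of all 15720 genes tested were lower. Between the hosts in D2.1 tumors 0 of the 58 genes then differed. Of all 15672 genes tested there, 11 were higher in BALB/c mice and 0 lower, so the count of 0 carries no weight.

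Marker sums of other cell types also differed between the tumors of the lines. Fibroblast markers were read in culture as well, so host and implanted cells cannot be told apart as their source. Fibroblast and pericyte markers, all 8 of which were detected in every tumor, summed to 4322 to 9852 CPM in D2.1 tumors and 804 to 1989 CPM in D2A1 tumors. The sum did not hold for each marker. Pdgfrb overlapped, at 288.1 to 688.8 CPM in D2.1 and 248.6 to 674.9 CPM in D2A1 tumors. Pdgfra (214.4 to 655.8 against 20.26 to 76.15 CPM) and Dcn (166.5 to 415.2 against 13.19 to 46.33 CPM) did not overlap. Single values of the other markers of this list are not given here. Endothelial markers had lower sums in D2.1 tumors, at 62.3 to 149.6 against 211.6 to 291 CPM in D2A1 tumors, with all 6 detected in every tumor. Leukocyte markers overlapped, at 1151 to 2447 and 1242 to 2537 CPM, with 11 to 15 and 10 to 13 of 15 detected. Schwann cell and nerve markers summed to 21.1 to 74.7 CPM in D2.1 tumors and 16.5 to 21.9 CPM in D2A1 tumors, with 5 or 6 of 6 detected. None of the 58 genes was among these markers, and their part in the 17 overlapping genes, such as Cxcl12 and Hlx, was not tested. In D2A1 tumors, milk protein markers were at most 1.97 CPM and skin keratinocyte markers at most 4.62 CPM. In culture, fibroblast and pericyte markers summed to 155 to 192.5 CPM in D2.1 and 39.6 to 71.1 CPM in D2A1, and Schwann cell and nerve markers to 8.44 to 9.92 and 9.53 to 12.8 CPM. Leukocyte markers summed to at most 11.1 CPM there and endothelial markers to at most 0.763 CPM.

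Among 5 cilium, centrosome and tubulin genes, 4 were lower in D2.1 tumors of both hosts. Hydin, a protein of motile cilia, was the second most read gene of the set in culture (984, 1083 and 1587 reads in D2A1, and 0, 1 and 0 in D2.1). D2A1 tumors held 290 to 520 reads and D2.1 tumors 0 to 6. The line differences were −6.64 ± 0.37 and −7.82 ± 0.50 (edgeR adjusted p = 1.2e-06 and 1.4e-07). Lca5, a ciliary protein of photoreceptors, Cntln, a centriole linker, and Tbcel, a tubulin chaperone-like protein, were the other 3. The SCID-beige call of Cntln (−1.25 ± 0.42, edgeR adjusted p = 0.036) was lost without D2.1 replicate 1, 2 or 5 or D2A1 replicate 3, 4 or 5 (adjusted p up to 0.097, edgeR). Anks6, a protein of the inner cilium, differed in SCID-beige tumors (−1.36 ± 0.37, edgeR adjusted p = 0.013), and in BALB/c tumors the difference was −0.58 ± 0.35 (edgeR adjusted p = 0.23).

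Of 12 signaling, cytoskeletal and other genes, 9 were lower in D2.1 tumors of both hosts. Parvb, the focal adhesion protein beta-parvin, had 736 to 945 reads in D2A1 tumors and 104 to 290 in D2.1 tumors. Jakmip3 had 65 to 312 and 0 to 5. Irak1bp1, a partner of the kinase IRAK1, had 85 to 157 reads in D2A1 tumors and, in D2.1 tumors, 37, 6, 10 and 16 in BALB/c mice and 0, 4, 2, 0 and 2 in SCID-beige mice. Rnf219 and Arhgef10 were lower by the edgeR test too, with log2 differences of −2.41 and −0.71 in BALB/c tumors and −2.87 and −1.68 in SCID-beige tumors. The BALB/c call of Arhgef10 was lost without a low-count filter (edgeR adjusted p = 0.080) and without D2.1 replicate 1, 2 or 3 or D2A1 replicate 1, 2 or 4 (adjusted p up to 0.095, edgeR). Aox4, Asphd2, Tmem136 and Zc3h12c were the rest of the 9, and the BALB/c call of Zc3h12c was lost without D2.1 replicate 1 or D2A1 replicate 2 (edgeR adjusted p up to 0.057). Chn2, the Rac GTPase activator beta-chimaerin, was at 12.9% of its culture level in D2A1 tumors. It had 32, 50, 97 and 74 reads in BALB/c D2.1 tumors against 62, 37, 26 and 34 in D2A1 tumors (log2 difference 0.69 ± 0.44, edgeR adjusted p = 0.26). In SCID-beige mice it had 13, 33, 12, 29 and 29 reads in D2.1 against 56, 52, 16, 11 and 32 in D2A1 tumors (−0.69 ± 0.53, edgeR adjusted p = 0.35). Ppp4r4 and the phospholipase gene Plch1 were patchy in the tumors of both lines, at 8.07% and 21.3% of the D2A1 culture level in D2A1 tumors.

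The level that D2A1 tumors kept from culture was set beside that of the other 9725 genes on in D2A1 culture. Over the 58 genes the median tumor held 79.3% of the culture CPM, and the 9 tumors gave medians of 59.6% to 93.2%. The other genes gave 97.7%. Of the 58 genes, 23 were above 100% (39.7%, against 48.2% of the other genes) and 4 were under 10% (6.90%, against 0.638%). The highest were Olfr1501, Mmp10, Hlx (557%), Oaf (364%) and Fbln1, and the lowest Dlx2, Ltk, Ppp4r4, Pou4f1 and Elovl4. These shares are of whole tumors and were not corrected for the share of host cells in them. The 2 tables used different gene models. For 49 of the 58 genes the implied length was shorter in the tumor table by over 3% and for 4 it was longer. With the deposited FPKM values in place of CPM the median was 119.7% for the 58 genes and 169% for the other genes.

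**Figure D4:**
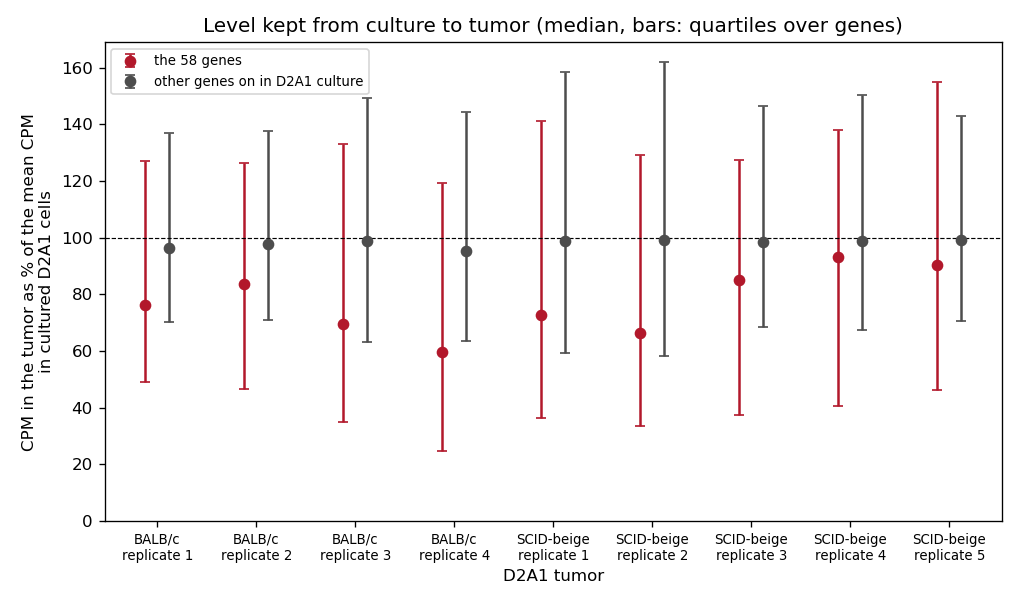
CPM in each of the 9 D2A1 tumors as a percentage of the mean CPM of the 3 D2A1 culture libraries, as the median and quartiles over the 58 genes (red) and over the other 9725 genes on in D2A1 culture (gray). The red medians lie between 59.6% and 93.2%, each under the gray median of the same tumor.

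The genes also varied more among tumors than other genes did. The median coefficient of variation over the 9 D2.1 tumors was 85.4% for the 58 genes and 21.5% for the other genes on in D2A1 culture. Over the 9 D2A1 tumors it was 34.8% and 21.2%. The levels in D2.1 tumors were often a few reads per library, at which counting error alone is large. The other genes were not matched for level. In D2A1 culture the median was 2.84 FPKM for the 58 genes and 14.1 FPKM for all genes on. The part of counting error was thus not separated in the tumors of either line.

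The 58 genes were spread over 15 chromosomes. Of these, 12 lay on chromosome 9, which was 20.7% of the set and held 5.60% of the genes on in D2A1 culture. There were none on chromosomes 10, 11, 13, 17 and 18. Of the genes, 10 formed 5 pairs of next neighbors among the protein-coding genes on in D2A1, and no run was longer. The pairs were Pou4f1 and Rnf219 (chr14:104461676-104522645), Tril and Chn2 (chr6:53815468-54301810), Cln8 and Arhgef10 (chr8:14881335-15001085), Tmem136 and Oaf (chr9:43108650-43239911) and Prtg and Pygo1 (chr9:72806874-72952181), all on GRCm38. The next gene on in D2A1 was also of the set for 8.62% of the 58 genes, where 0.593% of genes on in D2A1 were of the set. No test was run on these shares. Within the Tril to Chn2 interval lay 1 further coding gene, Cpvl, with 0 reads in each D2.1 culture library, and between Tmem136 and Oaf lay Pou2f3, with at most 2.

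**Figure D5:**
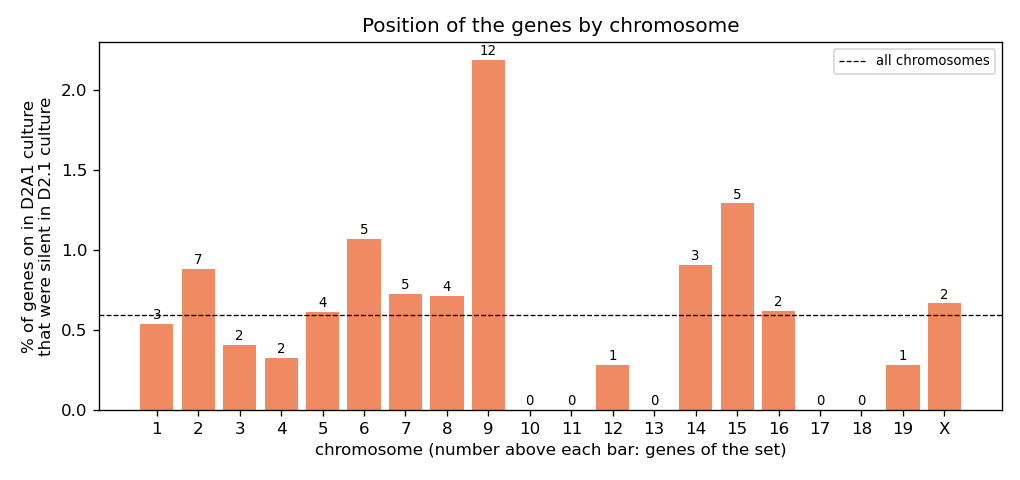
Share of the genes on in D2A1 culture on each chromosome that were silent in D2.1 culture, with the number of such genes above each bar and the share over all chromosomes as a dashed line (0.593%). Chromosome 9 stands at 2.19% with 12 genes.

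By function, the 58 genes held no member of the lists of oncofetal RNA-binding and chromatin genes, epithelial adhesion genes, or cartilage and bone genes, of which 5, 7 and 2 genes were on in D2A1 culture. By symbol family, 3 of 53 homeobox and other developmental transcription factors on in D2A1 culture were of the set (Dlx2, Pou4f1 and Tbx3). So were 1 of 255 zinc finger genes (Zfp334), 1 of 146 solute carriers (Slc4a8) and 1 of 9 chemokine and interleukin genes (Cxcl12). The set also held 1 of 6 X-linked Tceal, Bex and Armcx genes (Tceal8) and 2 of 22 voltage-gated and related ion channel genes (Cacna1c and Kcnip3). Of all genes on in D2A1 culture 0.593% were of the set, and no test was run. No protocadherin, integrin, collagen, laminin, semaphorin, ephrin, glutathione S-transferase, keratin, claudin or MHC gene was among the 58. Few genes of these lists were on in D2A1 culture, so at that share most would hold none and the absences carry no weight.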

How the data were processed

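The data were 6 RNA-seq libraries from cell culture and 18 from whole tumors, grouped by their labels. The authors deposited raw read counts and FPKM values per gene in 1 table for cells and 1 for tumors. Their processing notes name STAR and mm10, and the counting program, annotation and strand setting are not given in the sources used here. Genes were matched by identifier to GENCODE M21 (GRCm38), and at most 0.117% of counts had no match. The 58 genes, the gene lists and the role groups were chosen with earlier results of these data known.

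Levels are CPM with TMM factors, computed within each table by edgeR 4.0.16 (R 4.3.3). Lines and hosts were compared in tumors only, with edgeR's quasi-likelihood test, the default filter and a Benjamini-Hochberg adjusted p under 0.05. Each fit held the groups compared. In simulated tumor counts in which 200 genes had been given a log2 change of 2, the test found 80.0% in the BALB/c comparison of lines, 80.5% in the SCID-beige one, 84.0% and 78.0% for hosts in D2A1 and D2.1 tumors, and 62.0% for the interaction. Of the edgeR calls in these simulated counts 3.88% to 6.98% were false, and of those of DESeq2 12.6% to 20.9%. The real comparisons of lines called far more genes than the 200 changed here. In BALB/c tumors 2510 were higher and 2358 lower in D2.1, and in SCID-beige tumors 2476 and 2131. Both kinds of share depend on how many genes change, so they need not hold for the comparisons of lines. Alternatives were DESeq2 1.42.0, its size factors, other filters, 1 fit of all tumors, a replicate block and leaving out each library. Deviations of same-numbered tumors of the 2 lines correlated at 0.100 to 0.491 in BALB/c mice and at −0.161 to 0.344 in SCID-beige mice. The same-numbered D2A1 tumor was the best match for D2.1 replicate 2 alone in BALB/c mice and for replicates 1, 2 and 5 in SCID-beige mice. Whether the numbers mark pairs is not known, and same-numbered tumors were taken as pairs in the replicate block only. Retention is CPM in a D2A1 tumor over mean CPM in D2A1 culture.

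Genes were named by rule: those with the highest culture level in each tumor class, members of the lists, those called between hosts, the 5 highest and lowest in retention, those at the limits, and those highest in D2.1 tumors. Others were named for their role after their values were seen. Intervals and floors cover counting error only, and a floor of 3 reads per library was used.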

Additional observations from a re-analysis of the deposited data

Results flagged for a closer look

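A library stood apart from the others of its group, by Dixon's test at the 95% level on log2(CPM + 0.5), for 12 of 232 combinations of gene and tumor group, and chance alone gives about 1 in 20. In D2.1 tumors of BALB/c replicate 3, Morc1 (0.0565 CPM, 1 read) and Prtg (0.169 CPM, 3 reads) were highest. Dlx2 was highest in BALB/c replicate 4 (0.184 CPM, 3 reads) and Tbcel in replicate 1 (9.25 CPM), the tumor with milk protein transcripts. Tceal8 was lowest in BALB/c replicate 2 (2.42 CPM). In SCID-beige mice, D2.1 replicate 3 was lowest for Fbln1 (0.0576 CPM, 1 read, against 3.46 CPM or more in the others) and highest for Ereg (1.09 CPM, 19 reads, against none), and replicate 4 was highest for Prtg (0.414 CPM, 7 reads). Among D2A1 tumors, Morc1 was lowest in BALB/c replicate 1 (17.4 CPM), Ltk highest in the same tumor (0.289 CPM, 5 reads), Tmem136 lowest in BALB/c replicate 4 (1.30 CPM) and Chst15 lowest in SCID-beige replicate 2 (37.2 CPM).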

How the results depend on the processing

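The count of genes lower in D2.1 tumors stayed within 1.5 times of the reported count under every setting tried (36 to 39 in BALB/c and 41 to 44 in SCID-beige mice when single tumors were left out). The replicate block gave 41 and 44, adding Hlx and Bend7, and changed no other call but that of Khdrbs3. Over all genes it gave 3713 of 14953 lower in BALB/c and 2471 of 14355 in SCID-beige tumors, against 2358 and 2131 without it. The count of genes higher in D2.1 was 1 (Ltk) in each host with DESeq2, with no low-count filter and, with 1 fit of all tumors, also 1. It was 0 to 2 in BALB/c and 0 to 1 in SCID-beige mice with single tumors left out, the second gene being Siglecg, and 1 without SCID-beige D2.1 replicates 3 and 4. Between hosts in D2.1 tumors, DESeq2 called 4 genes, edgeR without a filter 2, 1 fit of all tumors 6, and both the replicate block and the fit without BALB/c replicates 1 and 4 called 0, with 0 to 2 when single tumors were left out. Of all genes, 527 of 18831 were higher in BALB/c mice by DESeq2 and 263 of 26678 by edgeR without a filter. The 1 fit of all tumors gave 225 higher and 36 lower of 16036. In D2A1 tumors DESeq2 called 3, all lower in BALB/c mice, as were 177 of all 17779 genes that it tested there. For the interaction DESeq2 called 3, DESeq2 size factors in edgeR 1, no filter 1, and single tumors left out 0 to 1. Of all genes, 71 of 17352 were more positive by DESeq2, 6 of 16036 with its size factors and 5 of 29312 without a filter. Settings named without 2 tumors at once were chosen after the data were seen. Without BALB/c replicates 1 and 4, Elovl4 went from 0.12 to −6.25, as these 2 tumors held all its D2.1 reads. Without SCID-beige replicates 3 and 4, Oaf went from 0.41 to −3.06. The causes were not tested.

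The rule gave 30 genes with 0 reads allowed in D2.1 culture and 96 with up to 10, and 60 to 68 with single culture libraries left out. With detection at more than 0 reads, 1 gene was in D2A1 tumors only and 3 were patchy. At more than 10 reads, 9 genes were in D2A1 tumors only and 2 were absent from all D2A1 tumors. With single tumors left out, 0 to 1 gene was absent from all D2A1 tumors. Retention was 119.7% by FPKM. At a few reads per library, presence in a D2.1 tumor is a matter of the limit chosen.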
